A study of Arabidopsis thaliana with 6 samples.

Results

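The 8 morning clock MYB genes of Arabidopsis thaliana described here are CCA1, LHY, RVE1, RVE2, RVE4, RVE6, RVE7 and RVE8. They were chosen by AGI locus code, 8 of 22591 genes with such a code in the table, and each had 1 of the 22808 probe sets. ATH1 arrays from Affymetrix measured their transcripts in leaf RNA of seedlings 2 weeks old. There were 3 arrays of the essp3 mutant of BRAHMA, the gene of a SWI/SNF chromatin remodelling ATPase, and 3 arrays of the wild type (ProβCG:GUS), a line with a GUS reporter under a β-conglycinin promoter. Seeds of all groups were kept at 4 °C for 3 days, and plants grew on MS agar with 1.5% sucrose under 16 h of light at 22 °C and 8 h of dark at 20 °C. The labels give the mutant allele under several names (essp3, brm5 and brm-6) without its lesion, and name the reporter only for the wild type. The 3 samples a group are biological replicates by the labels, and no label gives an hour of harvest. The array names in the key of the deposited table carry one code for the mutant arrays and another for the wild-type arrays. What the code marks is not stated, and it cannot be told apart from genotype.

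These genes encode transcription factors with a single MYB repeat that bind evening elements and related promoter sites. CCA1 and LHY peak around dawn and repress genes of the afternoon and evening. The pseudo-response regulator (PRR) proteins, made through the day, in turn repress CCA1 and LHY. RVE4, RVE6 and RVE8 belong to a clade that activates evening genes together with LNK coactivators, and RVE1, RVE2 and RVE7 to a clade that links the clock to growth, dormancy and greening. In RNA from whole leaves, fewer cells of a type and less RNA per cell cannot be told apart.

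Signals are MAS5 intensities that the authors scaled to an array mean of 1000. A mutant array had 12863 to 13723 probe sets with a Present (detected) call, and a wild-type array 13148 to 13761. The 25S ribosomal RNA control read 371 to 483 on the mutant arrays and 4149 to 7797 on the wild-type arrays, and its part in the differences below was not tested. The ratio of the 3' to the 5' GAPDH control was 1.44 to 1.70 on the mutant arrays and 1.68 to 1.83 on the wild-type arrays. The same ratio for actin was 6.47 to 14.4 on the mutant arrays and 7.39 to 15.3 on the wild-type arrays, and for ubiquitin 2.69 to 3.05 on the mutant arrays and 2.41 to 2.90 on the wild-type arrays. Their part in the differences was not tested. All 5 leaf markers were Present on every array and none passed the test, although CA1 was higher on every mutant array (log2 difference 0.25, SE 0.10, limma adjusted p = 0.0797), with summed signals of 284276 to 294216 in the mutant and 270813 to 333924 in wild type. None of 5 seed markers had a Present call, and of 5 flower and apex markers only the petal and stamen gene PI had any. Of 5 root markers, EXPA7 and LRX1 had no Present call, and SCR, which leaves also express, rose (log2 difference 0.58, SE 0.15, limma adjusted p = 0.00943). PYK10 was lower on every mutant array and did not pass (log2 difference -0.287, SE 0.125, adjusted p = 0.103). COBL9 had a Present call on 1 mutant array only and was not tested. The 5 root markers summed to 3276 to 3460 in the mutant and 3474 to 3934 in wild type.

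The genes were picked with the difference between mutant and wild type already known, so their differences are given as a description, with no test. CCA1 (AT2G46830) read 1157, 1322 and 1335 on the 3 mutant arrays and 496, 279 and 254 on the 3 wild-type arrays. Its mean was 1271 ± 99.1 in the mutant and 343 ± 133 in wild type (SD, n = 3 each). Its groups were far apart, and the mutant arrays lay close together while wild-type replicate 1 stood above the other wild-type arrays. LHY (AT1G01060), the nearest relative of CCA1 and partly redundant with it, read 879.9, 887 and 925 in the mutant and 228, 167 and 77.4 in wild type. Wild-type replicate 3, the lowest array of LHY, had no Present call. On the log2 scale the difference was 1.95 (SE 0.22) for CCA1 and 2.65 (SE 0.30) for LHY, which is 3.87-fold and 6.26-fold higher in the mutant.

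RVE1 and RVE2 were also higher on every mutant array, whereas RVE7, of the same clade, overlapped between the groups. RVE1 (AT5G17300), a promoter of auxin synthesis and hypocotyl growth, read 698, 692 and 506 in the mutant and 169.8, 114 and 88.5 in wild type. Every mutant array but no array of wild type detected it, so its wild-type level is uncertain, and the fitted 5.22-fold higher signal in the mutant is an estimate. RVE2 (AT5G37260), also called CIR1, read 693, 798 and 892 in the mutant and 124, 135 and 115 in wild type. Its log2 difference of 2.67 (SE 0.19) differed from that of LHY by less than either SE, and its wild-type arrays were the most alike among the 5 genes that differed most. RVE7 (AT1G18330), also called EPR1 and first described by its early response to phytochrome, read 1762, 2185 and 2741 in the mutant and 2405, 1621 and 843 in wild type. Wild-type replicate 1 lay inside the mutant range of RVE7 and replicate 3 far below it. For RVE7 the log2 difference was 0.56 (SE 0.28) over all arrays, 0.91 without wild-type replicate 1 and 0.15 without wild-type replicate 3.

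The 3 genes among the 8 that belong to the evening-activating clade did not move together. RVE8 (AT3G09600), the best known activator of the clade, read 241, 252 and 198 in the mutant and 77.1, 57.8 and 43.2 in wild type. As for RVE1, detection was limited to the mutant arrays, and the fitted 3.97-fold higher signal in the mutant is an estimate. RVE4 (AT5G02840), also called LCL1, read 2741, 2474 and 2780.1 in the mutant and 4068, 3014 and 2961 in wild type. It was the one gene of the 8 that was lower on every mutant array, with a log2 difference of -0.32 (SE 0.14) that shrank to -0.17 without wild-type replicate 1. RVE6 (AT5G52660) read 515, 468 and 508 in the mutant and 405, 390.0 and 395 in wild type. Its log2 difference was small, 0.33 (SE 0.16), with groups that did not overlap.

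**Figure D1:**
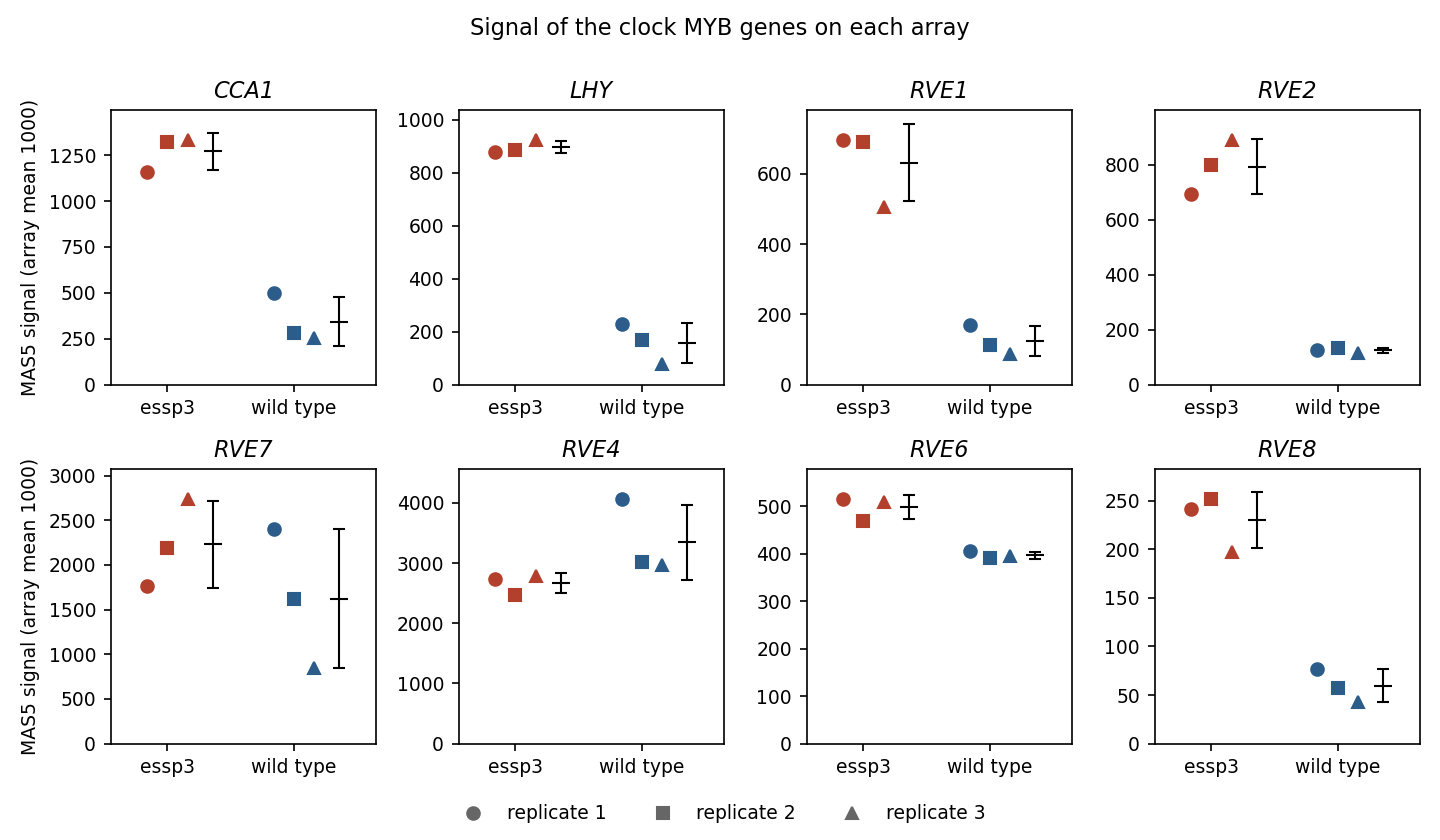
MAS5 signal (linear, array mean 1000) of the 8 clock MYB genes on each array, essp3 left of wild type. Point shapes mark replicates, and the black bar beside each group is the mean ± SD of 3 arrays. CCA1, LHY, RVE1, RVE2, RVE8 and, by a small difference, RVE6 lie higher on all mutant arrays, RVE4 lies lower, and RVE7 overlaps.

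In the limma fit over all 13626 probe sets that were Present on at least 3 arrays, 5 of the 8 genes passed an adjusted p of 0.05 upward and none downward, against 14.4% upward and 13.9% downward of all tested probe sets. These 5 are CCA1, LHY, RVE1, RVE2 and RVE8. Both directions together, 28.4% of tested probe sets passed. Each of the 5 was called and at least 2-fold higher on the fitted scale, as were 3.98% of tested probe sets, and LHY, RVE1 and RVE2 were called and at least 4-fold higher, as were 0.683%. The arrays of the groups did not overlap for 7 of the 8, as for 42.7% of all tested probe sets; 6 were higher in the mutant (21.1% of all) and RVE4 was lower (21.6%). Of the 8 genes, 4 were Present on all 6 arrays and 4 lacked the call on 1 or more wild-type arrays: LHY, RVE1, RVE2 and RVE8. RVE1 and RVE8 entered the fit through the mutant arrays alone. The median log2 difference of the 8 was 1.97, beside -0.01 for all tested probe sets. Nothing is read from these shares, since the same contrast chose the genes. In the authors' deposited table the ratio of mean signals, mutant over wild type, ran from 0.796 for RVE4 to 6.38 for RVE2.

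The spread within each group did not enter the rule, but it comes from the arrays on which the genes were picked, so it too is given with no test. Over the wild-type arrays, the SD of the log2 signal was 0.52 for CCA1, 0.80 for LHY, 0.47 for RVE1, 0.76 for RVE7 and 0.42 for RVE8. Over the mutant arrays it was 0.12, 0.04, 0.27, 0.32 and 0.19 for the same genes in the same order. Over all tested probe sets the median was 0.18 in the mutant and 0.20 in wild type. For 6 of the 8 genes the wild-type SD exceeded the mutant SD, as for 53.8% of all tested probe sets. The exceptions were RVE2 and RVE6. For CCA1, Present on all arrays, the wild-type SD was above that of 93.1% of tested probe sets and the mutant SD above that of 27.1%. The wild-type SDs of LHY, RVE1, RVE2 and RVE8 rest in part or whole on signals with no Present call and are uncertain.

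**Figure D2:**
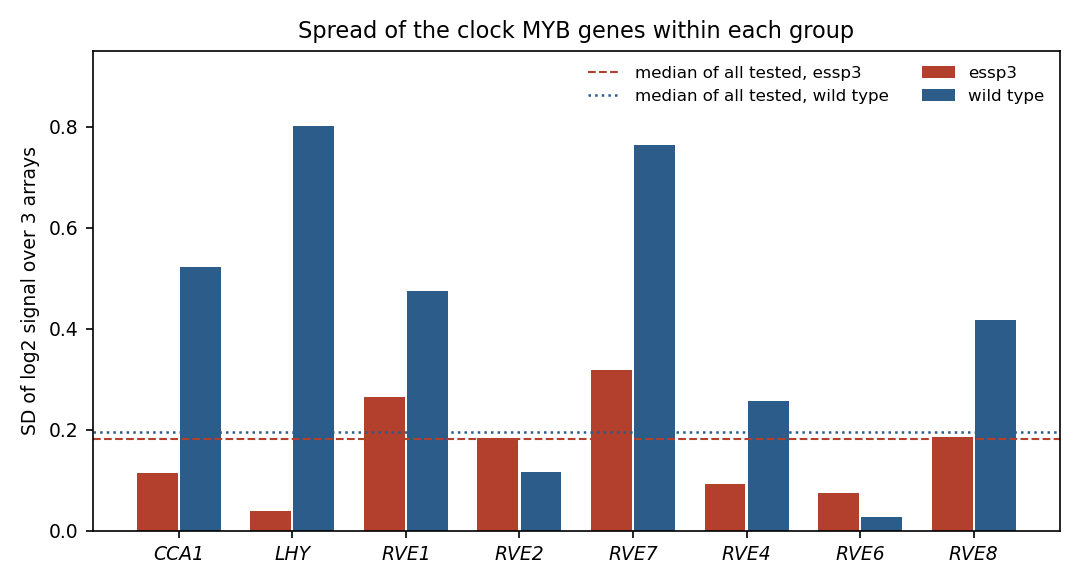
SD of the log2 signal over the 3 essp3 arrays (left bar) and the 3 wild-type arrays (right bar) of each clock MYB gene; dashed and dotted lines are the medians over all tested probe sets. CCA1, LHY, RVE1, RVE4, RVE7 and RVE8 have the wider spread in wild type, and RVE2 and RVE6 do not.

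The wild-type arrays differed in one pattern over most of the genes. Wild-type replicate 1 was the highest of the 3 wild-type arrays for 7 of the 8 genes, against 30.4% of all tested probe sets, and replicate 3 the lowest for 7 of 8, against 31.3%. Both held for 6 genes, against 16.8%. RVE2, highest on replicate 2, and RVE6, lowest on replicate 2, were the exceptions, and both varied little. Replicate 1 read 1.95 times replicate 3 for CCA1 and 2.85 times for RVE7, both Present on all arrays. For LHY the order rests on a replicate 3 signal with no Present call. For RVE1 and RVE8 no wild-type array had a Present call, so their whole order is uncertain. These genes share arrays and are known to cycle together, so they are not independent counts. For CCA1, the mean log2 signal of the mutant arrays lay 1.35 above wild-type replicate 1 and 2.32 above wild-type replicate 3.

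Of 3 further REVEILLE-type genes, 2 were on the array. ASG4 (AT1G01520), a MYB gene named for altered seed germination, read 223, 268 and 279 in the mutant and 38.5, 53.4 and 20.1 in wild type, where it was not detected. With the wild-type replicate 3 signal raised to the lowest Present signal of that array, the mutant signal was 6.18-fold higher. The other wild-type signals were undetected too and stood as read, so this fold is an estimate and not a lower bound. Only mutant arrays brought ASG4 past the detection filter, so no test is given for it. The MYB family gene AT4G01280 read 332, 359 and 349.9 in the mutant and 472, 412 and 349.8 in wild type, with no change shown (log2 difference -0.24, SE 0.18, adjusted p = 0.351).

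The rest of the core oscillator was mixed. Of 9 tested PRR and evening genes (BOA had no probe set), 3 fell and 1 rose in the mutant, with a median log2 difference of 0.01, where 28.4% of all tested probe sets passed. PRR5, a daytime repressor of CCA1 and LHY and itself a target of RVE8, fell to 1122, 866 and 1048 in the mutant, against 2247, 2526 and 3562 in wild type (log2 difference -1.44, SE 0.17, limma adjusted p = 4.91e-05). PRR7, another repressor of CCA1 and LHY, fell by 0.52 (SE 0.14, adjusted p = 0.0108) and GI, an afternoon gene that acts in flowering, by 0.80 (SE 0.13, adjusted p = 0.000646). ELF4, a subunit of the evening complex and a gene that CCA1 and LHY repress, went the other way and rose by 1.45 (SE 0.20, adjusted p = 0.000124). PRR9 read 205, 203 and 187 in the mutant and 361, 146 and 88.5 in wild type, a spread of 4.08-fold within wild type with replicate 1 highest. Its log2 difference was 0.25 (SE 0.40, adjusted p = 0.682). TOC1 (-0.13), PRR3 (0.05), LUX (0.01) and ELF3 (0.20) did not pass, with SEs of 0.16, 0.28, 0.14 and 0.23. The probe sets of PRR9 and LUX carry a suffix for probes shared between transcripts, so their signals are uncertain.

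Of 18 tested genes that act with or on the clock, 1 rose and 3 fell, a share near that of all tested probe sets (28.4% in both directions). LNK3, of the LNK coactivator family, read 1215, 1195 and 1131 in the mutant and 848, 459 and 315 in wild type (log2 difference 1.25, SE 0.26, limma adjusted p = 0.00306). LNK1 and LNK2, which the naming rule did not pick and which were added after their values were seen, had log2 differences of 0.76 (SE 0.33, adjusted p = 0.101) and 0.03 (SE 0.18, adjusted p = 0.933). LNK1 passed without wild-type replicate 1, at 1.27 (adjusted p = 0.00021). FKF1, a blue-light receptor F-box gene of the evening, fell by 0.87 (adjusted p = 0.00281) with a probe set that shares probes with other transcripts. CKB3, a gene for a regulatory subunit of the casein kinase that phosphorylates CCA1, fell by 0.78 (adjusted p = 0.00423). CHE, which encodes a TCP factor that binds the CCA1 promoter, fell by 0.38 (adjusted p = 0.0381), a call that ended when any array but wild-type replicate 2 was left out (adjusted p up to 0.125).

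**Figure D3:**
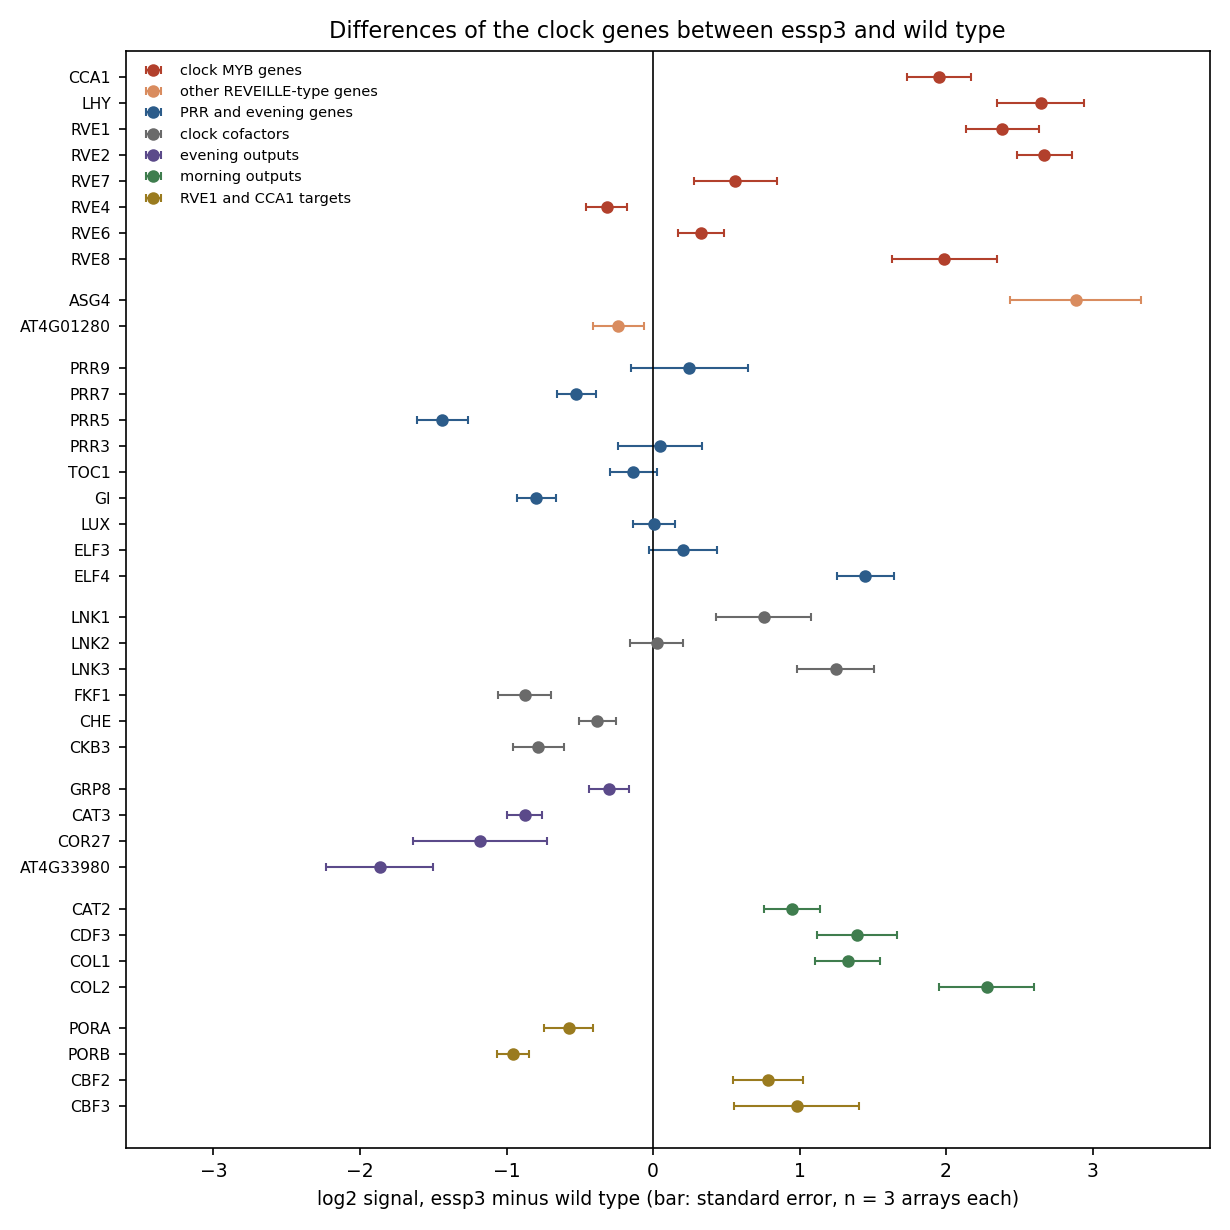
Log2 signal, essp3 minus wild type, of the 8 clock MYB genes and of other named clock genes, with bars for the standard error (n = 3 arrays each). Points right of 0 are higher in the mutant. CCA1, LHY, RVE1, RVE2 and RVE8 lie near 2 or above, while PRR5, COR27 and AT4G33980 lie below -1; RVE1, RVE8 and ASG4 were not detected in wild type, so their positions are uncertain.

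Genes known to peak in the morning or evening and taken as outputs of the clock were set beside the 8 genes. Of 10 tested morning outputs, 7 rose and 2 fell (median log2 difference 1.14), and of 5 tested evening outputs, none rose and 2 fell (median -0.88), where 14.4% of all tested probe sets rose and 13.9% fell. COL2, a CONSTANS-like gene, read 3366, 2908 and 2931 in the mutant and 1251, 602 and 335 in wild type (log2 difference 2.28, SE 0.32, limma adjusted p = 0.000176). COL1 (1.33, adjusted p = 0.000646), the Dof repressor gene CDF3 (1.39, adjusted p = 0.00188) and the catalase gene CAT2 (0.95, adjusted p = 0.0024) rose as well. Each of these 4 had wild-type replicate 1 highest and replicate 3 lowest, the order that 6 of the clock MYB genes show. The 2 that fell, outside the naming rule, were PIF4 (log2 difference -0.405, adjusted p = 0.0289) and PIF5 (-0.469, adjusted p = 0.0127). Both were also highest on wild-type replicate 1.

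Of the evening outputs, AT4G33980 and CAT3 fell, and the other 3 did not pass. AT4G33980 read 195, 202 and 175 in the mutant and 312, 859 and 1250.5 in wild type (log2 difference -1.87, SE 0.36, limma adjusted p = 0.00181). CAT3, the evening catalase gene and a classic carrier of the evening element, fell by 0.88 (SE 0.12, adjusted p = 0.000158). COR27, a gene regulated by cold and by the clock, read 169, 194 and 139 in the mutant and 165, 326 and 992 in wild type and did not pass (log2 difference -1.18, SE 0.46, adjusted p = 0.0685). It passed without wild-type replicate 1, at -1.78 (adjusted p = 0.00192). GRP8, an RNA-binding protein gene of a clock output loop, did not pass either (log2 difference -0.30, adjusted p = 0.125). All 5 evening outputs were highest on wild-type replicate 3, as were 7 of 9 tested PRR and evening genes, against 42% of all tested probe sets. Of 10 morning outputs, 8 were highest on replicate 1, against 30.4% of all tested probe sets. The part of these differences between wild-type arrays in the contrast with the mutant was not tested beyond leaving out each array.

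**Figure D4:**
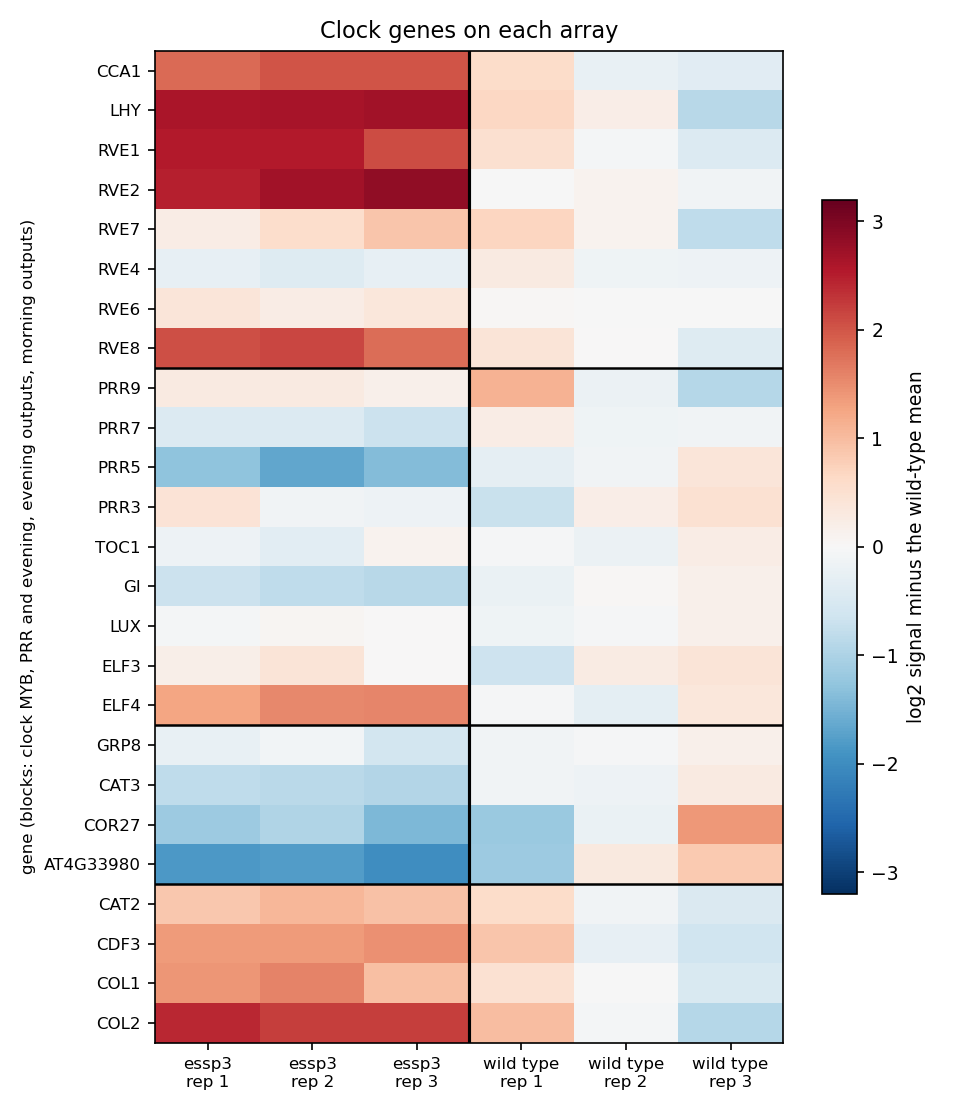
Log2 signal on each array minus the wild-type mean of the gene (colour scale), with the 3 essp3 arrays left of the 3 wild-type arrays. Blocks from top to bottom are the 8 clock MYB genes, PRR and evening genes, evening outputs and morning outputs. In wild type most clock MYB genes and morning outputs are highest on replicate 1. The evening outputs and most PRR and evening genes are highest on replicate 3.

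Genes reported as targets of RVE1 or CCA1 were also taken as a list. Of 6 tested, 1 rose and 2 fell, where 14.4% of all tested probe sets rose and 13.9% fell. PORA and PORB, which encode protochlorophyllide oxidoreductases of chlorophyll synthesis and of which PORA is a reported target of RVE1, fell by 0.57 (limma adjusted p = 0.0195) and 0.96 (adjusted p = 3.51e-05). PORA no longer passed once replicate 2 of the mutant (adjusted p = 0.102) or of wild type (adjusted p = 0.0842) was left out. CBF2, a cold response regulator gene with CCA1 sites, rose by 0.79 (adjusted p = 0.0247) but did not pass once mutant replicate 2, or wild-type replicate 1 or 2, was left out (adjusted p up to 0.152). CBF3 had a log2 difference of 0.98 (SE 0.43, adjusted p = 0.103) and passed without wild-type replicate 3 (adjusted p = 0.0255).

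CCA1 and RVE4 each lie close to a PRR gene in the gene order of assembly TAIR10.1, and the neighbours were looked up after the values were seen. On chromosome 2, 3 protein-coding genes separate CCA1 from PRR9. Of these, AT2G46810 had no probe set. ZAT and PSI-P had log2 differences of 0.05 (SE 0.14, limma adjusted p = 0.831) and 0.04 (SE 0.19, adjusted p = 0.908), beside 1.95 for CCA1. PSI-P had the wild-type order of CCA1, with replicate 1 reading 2.0 times replicate 3. On chromosome 5, RHL2 and AT5G02830 separate PRR7 from RVE4. AT5G02830, which the deposited table titles a pentatricopeptide repeat protein gene, read 1109, 882 and 559.5 in the mutant and 285, 180.0 and 168 in wild type (log2 difference 2.00, SE 0.26, adjusted p = 8.07e-05). RVE4 and PRR7, on either side, had log2 differences of -0.32 and -0.52. RHL2 fell by 0.89 (SE 0.29, adjusted p = 0.0345) but did not pass once replicate 2 or 3 of either group was left out (adjusted p up to 0.14).

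Likeness to CCA1 and LHY was measured over the 6 arrays as the root mean square difference in centred log2 signal from the average of both genes. It mostly measures the difference between the groups, it shares the arrays, and it is given with no test. RVE1 stood at 0.214 log2 units and RVE8 at 0.241, ranks 6 and 14 of 13626 tested probe sets. Neither was detected on any wild-type array, so these distances and ranks are uncertain. RVE2 stood at 0.39, RVE7 at 0.886, RVE6 at 1.05 and RVE4 at 1.33. CCA1 and LHY themselves each lay 0.225 from their average. The 5 nearest genes outside the lists were AT5G62140 (0.117), the invertase and pectin methylesterase inhibitor family gene AT1G23205 (0.125), the heat shock chaperone gene HSP70 (AT3G12580, 0.202), the U-box gene PUB29 (0.203) and the glutaredoxin family gene AT1G64500 (0.21). AT1G23205 and PUB29 each had a Present call on only 1 wild-type array, so their distances are uncertain too. AT5G62140, the nearest, read 989, 899.8 and 1138 in the mutant and 350.1, 197 and 145 in wild type. It was picked for this likeness, so its high, even mutant arrays and the wild-type order of CCA1 follow from the choice.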

How the data were processed

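The members, gene lists and tests were chosen with earlier results of these data known. Per the file headers, the deposited table holds MAS5 signal intensities, mean-scaled per array by the authors, with a detection call, the authors' ratio of means and the p-value of an unpaired test. The submitters' processing notes name MAS5 too, without settings. The series value table held identical intensities.

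Control probe sets (62 of 22808) were set aside. Log2 signals of the 13626 probe sets Present on at least 3 of 6 arrays were compared, mutant minus wild type, with limma 3.58.1 in R 4.3.3 (lmFit and trended eBayes). Tests were two-sided, and p-values were adjusted by Benjamini-Hochberg across the 13626, with 0.05 as the threshold. SE is the moderated standard error. The number of arrays, 3 a group, limits precision (median SE 0.18), and an exact permutation test cannot give a p below 0.1. For a probe set with no Present call in a group, per array the higher of its own signal and the lowest Present signal stood for it. That lowest signal is taken over all probe sets of the array and is no detection limit of the gene, so the fold is an estimate. For RVE1 and RVE8 their own signals stood on every wild-type array, so the fitted fold is given as an estimate. Named genes are the 8 members, all PRR and evening genes, from other lists up to 4 with the smallest adjusted p, and the 5 nearest by likeness; others are said to be outside the rule. Symbols come from the RefSeq table of TAIR10.1; locus codes stand where it has none. RVE6 is named by its customary symbol. The alternatives tried were no detection filter, a stricter one, quantile normalization, log2(signal + 16), no intensity trend, array weights, the replicate number as a block, the series value table and leaving out each array. The code was checked on simulated data.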

Additional observations from a re-analysis of the deposited data

How the results depend on the processing

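Of the 8 clock MYB genes, CCA1 passed under all 14 alternatives and LHY, RVE1, RVE2 and RVE8 under the 13 that could test them. The genes were picked on this same contrast, so these passes are a description only. The series value table held identical signals, so that alternative could not differ. RVE1 and RVE8 met the detection filter through the mutant arrays alone. When a Present call on all 6 arrays was required, 4 of the 8 entered and 1 passed (CCA1), because the filter removed LHY, RVE1, RVE2 and RVE8. The count stood at 5 under the replicate block, and at 5 to 6 when 1 array was left out, with RVE7 added without wild-type replicate 1; no test of these genes is read from this. Without 1 array the log2 difference ran from 1.77 to 2.25 for CCA1, 2.20 to 2.98 for LHY, 2.17 to 2.64 for RVE1, 2.58 to 2.76 for RVE2, 1.78 to 2.20 for RVE8, 0.15 to 0.91 for RVE7, -0.40 to -0.17 for RVE4 and 0.30 to 0.37 for RVE6.

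The 4 calls among PRR and evening genes stood at 4 under every alternative. Clock output genes called numbered 14, and 9 to 14 when 1 array was left out (9 without mutant replicate 2); the cause was not tested. Signs turned, without 1 array, only for genes that had not passed: PRR9 (-0.21 to 0.80), PRR3 (-0.30 to 0.30), LUX (-0.06 to 0.09), ELF3 (-0.13 to 0.41), LNK2 (-0.10 to 0.25), ZAT (-0.042 to 0.13) and PSI-P (-0.18 to 0.32). Deviations of same-numbered arrays correlated at 0.020 to 0.032, and those of differently numbered arrays at -0.021 to 0.000. These small values do not settle whether the replicate numbers pair the arrays. Under the replicate block 3737 probe sets passed in place of 3865, CHE lost its call (adjusted p = 0.0588), and LNK1 and CBF3 passed (adjusted p = 0.0308 and 0.0499). All probe sets called ran from 2679 to 3638 when 1 array was left out and reached 4353 with array weights. Levels not called Present, as for RVE1, RVE8 and ASG4 in wild type, limit the folds.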
